A study of Mus musculus with 6 samples.

Results

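Cytokine receptors are the means by which a B cell senses help from T cells. The set described here holds 10 genes, Il4ra, Il2rg, Il13ra1, Il21r, Il10ra, Il10rb, Il6ra, Ifngr1, Ifngr2 and Ifnar1, of 21887 protein-coding genes on the autosomes, X and Y, and was chosen by gene name as the receptor chains for IL-4, IL-13, IL-21, IL-10, IL-6 and the interferons. Open chromatin at these genes was read from ATAC-seq, in which the Tn5 transposase inserts adapters into accessible DNA, of splenic immature B cells (labelled B220+CD93+). Both groups are Tcrd-GDL mice, in which a construct at the Tcrd locus gives γδ T cells a fluorescent reporter and the receptor for diphtheria toxin. The DTx group, 3 libraries, came from mice that received diphtheria toxin in 2 intraperitoneal injections, 48 h apart and each of 15 ng per gram body weight, and the cells were taken on day 8 after the first of them. The untreated group, also 3 libraries, is labelled as receiving no treatment, so the loss of γδ T cells cannot be told apart from other effects of the toxin or the injections. The labels give neither the age of the mice nor whether each library is a separate mouse, so the spread among libraries may be technical. The limma p-values and SEs below rest on variances with a floor set over all genes, not on each gene's own spread alone.

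As background, each of these receptors is built from 2 or more chains. IL-4 binds IL-4Rα, which pairs with the common γ chain (Il2rg) on lymphocytes or with IL-13Rα1 on other cells and acts through STAT6, while IL-21 uses IL-21R with the same γ chain and acts mainly through STAT3. IL-10 uses IL-10Rα with the shared chain IL-10Rβ, IL-6 uses IL-6Rα with gp130, interferon-γ uses IFNGR1 with IFNGR2, and the type I interferons use IFNAR1 with IFNAR2. In B cells IL-4 and IL-21 support activation, class switching and germinal centre responses, and interferon-γ is known for switching to other antibody classes.

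The deposited data are 1 list of peaks per library, with 44661, 56266 and 60811 peaks for DTx replicates 1, 2 and 3 and 36760, 42504 and 56503 for untreated replicates 1, 2 and 3. DTx replicate 1 and untreated replicate 3 have a summit column and the other 4 do not, so values are also given within each kind of list. The read depth is unknown. A marker check showed a peak within 1 kb of a gene end in all 6 libraries for 9 of 10 B lineage genes. Some genes of other cells, named after their values were seen, lacked such a peak throughout. They were Cd3e and Zap70 of T cells, Ncr1 of natural killer cells, Lyz2 of myeloid cells, Gata1 of erythroid cells and Itgax of dendritic cells. Others of the same lists had such a peak in all 6 libraries, among them Cd3d, Prf1, Cd68, Klf1, Tfrc and Xcr1. Of all marker genes matched, 2 of 8 T cell, 1 of 6 natural killer, 2 of 8 myeloid, 4 of 6 dendritic and 3 of 6 erythroid genes had one in all 6 libraries. Of all protein-coding genes 49.2% did. The dendritic and erythroid genes were not below that share, so the check does not show that genes of every other lineage were closed.

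The position of the start is known for 8 of the 10 genes from RefSeq promoter windows (GRCm38.p6, the build that mm10 names), and Il10ra and Il10rb are named without one. At Ifnar1 and Il21r that start lies inside the gene coordinates used for the peaks, which begin at chr16:91485032 and chr7:125603252. Part of the bases before it is therefore within those coordinates. The start peaks described below are placed by the gene coordinates. The bases just before the start are printed for the 6 genes whose peaks differed most in rank or that hold a motif match. They are the receptor with the strongest start peak (Ifngr1), its partner with a weak one (Ifngr2), the type I interferon receptor (Ifnar1), the γ chain with a strong peak and few CpG dinucleotides (Il2rg), the IL-4 receptor (Il4ra) and the one gene that was nearly closed (Il13ra1). Each is 250 bases, 5′ to 3′ towards the gene, and capitals mark the motif matches described after them.
Ifngr1 (chr10:19591699-19591948, plus strand): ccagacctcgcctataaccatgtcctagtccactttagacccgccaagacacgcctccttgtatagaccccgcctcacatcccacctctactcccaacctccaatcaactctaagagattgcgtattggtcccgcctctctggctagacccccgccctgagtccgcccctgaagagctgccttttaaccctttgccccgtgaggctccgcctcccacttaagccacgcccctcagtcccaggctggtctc
Ifngr2 (chr16:91546809-91547058, plus strand): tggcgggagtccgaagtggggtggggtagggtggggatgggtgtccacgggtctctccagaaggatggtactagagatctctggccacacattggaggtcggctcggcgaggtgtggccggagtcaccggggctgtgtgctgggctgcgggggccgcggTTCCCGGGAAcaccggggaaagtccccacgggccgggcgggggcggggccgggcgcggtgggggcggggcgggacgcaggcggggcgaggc
Ifnar1 (chr16:91484965-91485214, plus strand): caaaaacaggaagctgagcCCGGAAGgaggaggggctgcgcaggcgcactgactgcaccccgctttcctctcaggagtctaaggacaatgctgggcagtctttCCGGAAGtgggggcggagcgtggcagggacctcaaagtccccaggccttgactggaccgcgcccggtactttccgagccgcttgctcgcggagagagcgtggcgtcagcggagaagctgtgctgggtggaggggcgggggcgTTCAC
Il2rg (chrX:101268256-101268505, minus strand): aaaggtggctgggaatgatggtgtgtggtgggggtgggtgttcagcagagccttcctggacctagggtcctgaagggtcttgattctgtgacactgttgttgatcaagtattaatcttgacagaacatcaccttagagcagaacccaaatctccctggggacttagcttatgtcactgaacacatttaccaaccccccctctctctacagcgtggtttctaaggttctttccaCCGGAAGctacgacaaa
Il4ra (chr7:125552021-125552270, plus strand): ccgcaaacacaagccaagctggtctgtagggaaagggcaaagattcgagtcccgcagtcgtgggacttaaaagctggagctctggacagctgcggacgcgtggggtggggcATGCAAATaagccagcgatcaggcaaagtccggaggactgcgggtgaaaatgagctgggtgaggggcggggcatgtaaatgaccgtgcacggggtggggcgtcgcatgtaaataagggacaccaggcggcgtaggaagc
Il13ra1 (chrX:36111858-36112107, plus strand): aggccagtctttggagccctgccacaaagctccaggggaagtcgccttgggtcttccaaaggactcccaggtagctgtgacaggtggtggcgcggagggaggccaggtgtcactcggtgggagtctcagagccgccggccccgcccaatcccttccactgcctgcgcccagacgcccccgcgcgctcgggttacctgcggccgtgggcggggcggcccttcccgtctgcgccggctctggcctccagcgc

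Base composition did not order these starts the way the peaks did. The 300-base window around the Il13ra1 start (the printed bases and the 50 after it) was 71.0% G and C with 28 CpG dinucleotides, a CpG content above that of the Ifngr1 window, with 60.3% and 14. The Il2rg window had 50.3% G and C and 3 CpG. Over all 32851 promoter windows the medians were 52.7% and 7 CpG. The peaks covered all 300 bases of the Ifngr1, Ifngr2, Ifnar1, Il2rg and Il4ra windows in 6 of 6 libraries, whereas at Il13ra1 a peak reached 158 of the 300 bases in untreated replicate 3 and none in the other 5 libraries.

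Both strands of the 8 windows were searched for 6 motifs. Distances are to the start given by the promoter window, which at Ifnar1 lies inside the gene coordinates used for the peaks. The GAS element TTCNNNGAA, a site of STAT factors, occurred in 1 of 8, that of Ifnar1, starting 5 bases before the start and running past the printed end, and in 8.3% of all windows. The STAT6 site, TTC and GAA with 4 bases between them, occurred in 1 of 8, 91 bases before the start of Ifngr2, against 6.95% of all. The ETS core CCGGAAG was found in Il2rg, 17 bases before the start, and at a pair of sites in Ifnar1, 231 and 147 bases before it, against 8.86% of all windows. The interferon-stimulated response core, GAAA and GAAA with 2 bases between them, and the ETS-IRF composite, GGAA and GAAA with 2 bases between them, were in 0 of 8, with 3.44% and 2.72% of all windows. The octamer ATGCAAAT, the site of OCT factors, was searched after the Il4ra sequence had been seen, and occurred in Il4ra alone among the 8, 139 bases before the start, against 1.74% of all windows. The GAS and STAT6 patterns are their own reverse complements, and no 2 matches overlapped. These are letters in a window and say nothing of binding.

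Peaks at the ends of the receptor genes are described by the percentile of their −log10 q within their own list, which ranks a peak against all others of that library. A percentile from a longer list is not comparable with one from a shorter list as a change, so these values describe each library and are not tested. A weak peak in a bulk sample can mean a site open in few cells or partly open in many, which cannot be told apart. A peak within 1 kb of a gene end, called a gene-end peak here, was present in all 6 libraries at 8 of the 10 genes and at 49.2% of all protein-coding genes. The 2 others were Il10ra and Il13ra1.

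The γ chain and IL-4 receptor genes were open in every library. Il2rg, which encodes the chain shared by the IL-2, IL-4, IL-7, IL-9, IL-15 and IL-21 receptors, had its start peak (chrX:101267708-101268949) at the 93.5th, 92.5th and 93.0th percentile in DTx replicates 1, 2 and 3, against the 93.1st, 96.5th and 93.4th in the untreated ones. Il4ra, the ligand-binding chain for IL-4, had its start peak (chr7:125551613-125552610) at the 87.5th, 88.6th and 87.5th percentile in DTx and the 79.2nd, 83.6th and 90.6th in untreated libraries. The values of the 2 groups overlapped for both genes. Il4ra also had a weaker peak past its far end (chr7:125579783-125580248), found in all DTx libraries and in 2 of 3 untreated ones, at the 14.8th, 33.0th and 36.8th percentile in DTx and the 19.2nd and 35.8th in untreated replicates 2 and 3. In equal-length lists, which keep the 36760 strongest peaks of each library by −log10 q, that peak stood in untreated replicates 2 and 3 and in 0 of 3 DTx libraries.

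Il13ra1, which encodes the chain that pairs with IL-4Rα in the other form of the IL-4 receptor, was nearly closed. It had a peak at its start (chrX:36112000-36112183) in 0 of 3 DTx and 1 of 3 untreated libraries, at the 4.4th percentile of untreated replicate 3 (exact two-sided permutation p = 1). Its whole window of 159 kb held 3 regions, of which 2 were away from the start. One inside the gene (chrX:36129353-36130011) stood at the 41.7th, 45.8th and 52.7th percentile in DTx and the 6.89th, 47.2nd and 47.4th in untreated libraries. The other lay 10473 bp beyond the lower-coordinate end (chrX:36100780-36101635), at the 30.9th, 38.7th and 37.6th percentile in DTx and the 10.9th, 40th and 41.1st in untreated libraries. Untreated replicate 1, the shortest list, was the lowest at both sites. Genes without a gene-end peak anywhere made up 40.9% of all protein-coding genes.

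Il21r, the specific chain for IL-21, had a start peak (chr7:125602966-125603639) at the 59.4th, 76.7th and 85.9th percentile in DTx libraries and the 67.5th, 73.1st and 72.7th in untreated libraries. The DTx values spread over a wider range, and the untreated ones all lay inside it. The site away from its ends that ranked highest in all 6 libraries was 4079 bp past its far end (chr7:125638476-125639294), nearest to Gtf3c1, at the 93.5th percentile or above.

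The 2 chains of the IL-10 receptor differed from each other. Il10ra, the ligand-binding chain, had a weak peak at its higher-coordinate end (chr9:45268074-45269279) in 2 of 3 DTx and all 3 untreated libraries (exact two-sided permutation p = 1). Its percentile was 42.3 and 36.8 in DTx replicates 2 and 3, with no peak in DTx replicate 1, and 14.6, 23.3 and 45.9 in untreated replicates 1, 2 and 3. In the equal-length lists it was present in DTx replicate 2 alone and in all 3 untreated libraries (exact two-sided permutation p = 0.4). A gene-end peak in more untreated than DTx libraries was found for 2.36% of all genes in the deposited and 5.07% in the equal-length lists. These shares count a difference of any number of libraries. DTx replicate 1, the library with no Il10ra end peak, is 1 of the 2 lists with a summit column and the other, untreated replicate 3, held the strongest one.

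A much stronger site lay 7346 bp beyond the other end of Il10ra (chr9:45245908-45246491), at the 90.3rd, 95.5th and 94.7th percentile in DTx and the 89.1st, 93.5th and 91.7th in untreated libraries. The nearest gene end to it belongs to BC049352. Il10rb, the chain shared with the IL-22 and interferon-λ receptors, had an end peak (chr16:91405421-91407143) at the 91.1st, 87.2nd and 92.7th percentile in DTx and the 79.5th, 85.0th and 88.7th in untreated libraries. DTx replicate 2 lay below untreated replicate 3, so the groups overlapped. This peak is also within 1 kb of an end of Ifnar2, the second chain of the type I interferon receptor, and cannot be assigned to one of the 2 genes.

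Il6ra, the ligand-binding chain for IL-6, had a start peak (chr3:89912623-89913509) at the 60.7th, 66.4th and 68.8th percentile in DTx and the 55.5th, 63.1st and 70.3rd in untreated libraries. A site inside the gene, 1562 bp from that start (chr3:89911149-89911634), ranked higher than the start peak in 6 of 6 libraries, at the 75.8th, 86.5th and 94.8th percentile in DTx and the 66.2nd, 82.7th and 77.9th in untreated libraries. A peak at the far end (chr3:89869586-89869897) was missing from untreated replicate 1 and present in the other 5 libraries. Untreated replicate 1 has the shortest list.

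Among the interferon receptors, Ifngr1 stood at the top of all 10 genes in every library. Its start peak (chr10:19591415-19592421) was at the 98.5th, 98.9th and 98.9th percentile in DTx and the 98.5th, 98.4th and 98.8th in untreated libraries. The authors' fold enrichment over background at this peak was 16, 7.72 and 7.89 in DTx and 7.07, 7.66 and 15.2 in untreated replicates 1, 2 and 3, where the 2 high values are those of the lists with a summit column. The gene for its partner chain, Ifngr2, had a weaker start peak (chr16:91545579-91547838), at the 46.6th, 47.4th and 49.1st percentile in DTx and the 36th, 43.4th and 67.0th in untreated libraries. The DTx values of Ifngr2 lay inside the range of the untreated ones. Its peak was wide in 5 libraries, with 2139 and 2259 bp in DTx replicates 2 and 3 and 2179, 1850 and 2187 bp in untreated replicates 1, 2 and 3, and had 820 bp in DTx replicate 1. The region that held it was 2260 bp wide, against 1007 bp at Ifngr1. Ifnar1, the type I interferon receptor chain, had its start peak (chr16:91484611-91485684) at the 95.2nd, 93.0th and 90.4th percentile in DTx and the 93.4th, 93.4th and 94.1st in untreated libraries. Here the untreated values lay inside the range of the DTx ones.

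**Figure D1:**
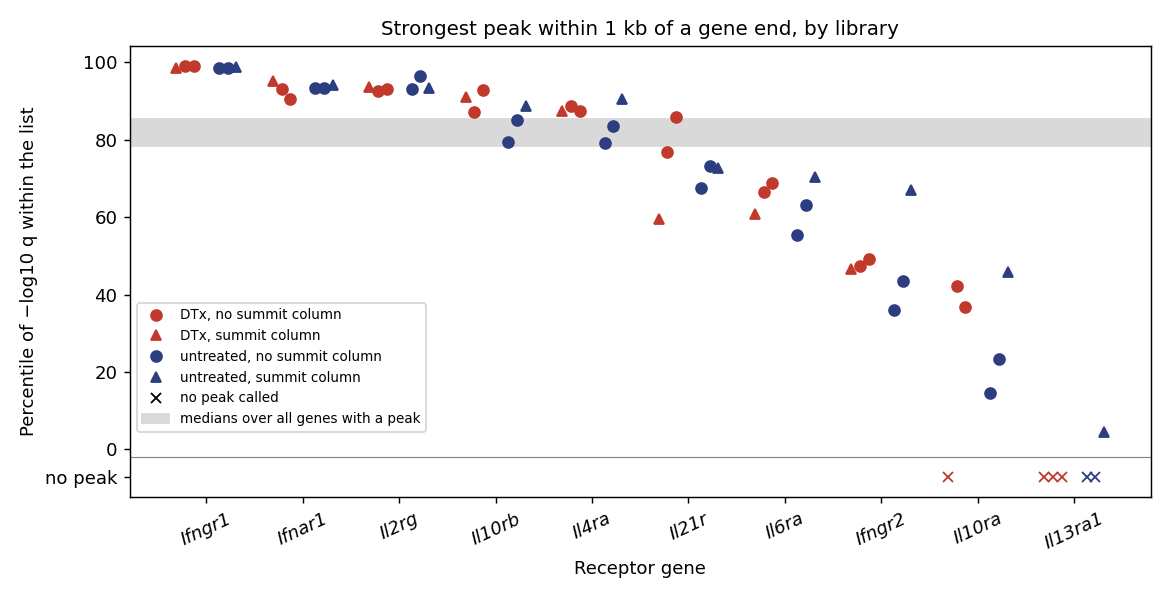
Percentile of −log10 q, within each deposited list, of the strongest peak within 1 kb of an end of each receptor gene, with DTx libraries left of untreated ones and crosses for libraries with no such peak. Triangles are the lists with a summit column, and the grey band spans the per-library medians over all genes with a gene-end peak, 78.3 to 85.2. Ifngr1, Ifnar1 and Il2rg lie above the band in all 6 libraries, and Il6ra, Ifngr2, Il10ra and Il13ra1 below it.

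The order of the 10 genes was much the same in each library. Of 45 pairs of genes, 40 had the same order in all 6 libraries. The 5 pairs that changed places or tied were Il2rg with Ifnar1, Ifnar1 with Il10rb, Il10rb with Il4ra, Il21r with Il6ra, and Il10ra with Il13ra1. The median percentile of the members with a peak was 89.3, 87.2 and 87.5 in DTx replicates 1, 2 and 3 and 79.2, 83.6 and 80.7 in the untreated ones. These medians are over 8, 9 and 9 members in DTx and 9, 9 and 10 in untreated libraries, so the genes differ. DTx replicate 1 lacks the weak Il10ra peak, and untreated replicate 3 alone includes Il13ra1, at 4.4. The medians therefore do not compare the groups. The median percentile over all genes with a gene-end peak was 81.2, 83.0 and 82.9 in DTx and 78.3, 79.5 and 85.2 in untreated libraries. Members with a gene-end peak numbered 8.67 ± 0.577 per DTx library and 9.33 ± 0.577 per untreated library (SD, n = 3 each). Among all genes the shares were 55.0 ± 2.69% in DTx and 53.8 ± 2.98% in untreated libraries (SD, n = 3 each). Within the lists without a summit column the member counts were 9 and 9 in DTx and 9 and 9 in untreated libraries, and in the lists with one they were 8 in DTx replicate 1 and 10 in untreated replicate 3.

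A gene-end peak that was complete in the DTx group and absent from the untreated group, or the reverse, was found at 0 of the 10 receptor genes. Over all 21887 genes the DTx-only pattern came to 0.0366% and the untreated-only pattern to 0.00457%. In the equal-length lists they were 0.0274% and 0.324%, again with 0 of the 10 receptor genes in either.

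Peaks around the genes were compared by their number in a window that runs 50 kb past both gene ends, in the equal-length lists. By limma on log2(peaks + 0.5) over 12570 genes, 0 of the 9 receptor genes with enough peaks passed a Benjamini-Hochberg adjusted p of 0.05, and 0 had an unadjusted p under 0.05, against 2.59% of all genes tested. The lowest unadjusted p was that of Ifngr1 at 0.273. Il13ra1, with a mean under 3 peaks, was not tested. Among all genes limma called 0.00796% higher and 0.00796% lower in DTx. The log2 folds of the 9 genes, DTx minus untreated, ran between -0.23 and 0.18 with a median of 0.0153, and the median over all genes tested was 0.0121. A fold on this scale understates differences of genes with few peaks. With the floor set on the variance, the SE hardly followed a gene's own spread. Il4ra, with SDs of 2.08 and 1.53 peaks in DTx and untreated libraries, and Ifnar1, with 1.53 and 0.577, both had an SE of 0.2.

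Il4ra had 10, 13 and 14 peaks in DTx replicates 1, 2 and 3 and 11, 14 and 13 in the untreated ones (limma log2 fold -0.04 ± 0.2 SE, adjusted p = 1, as for each of the 9 genes). Il21r had 11, 13 and 14 in DTx and 11, 14 and 14 in untreated libraries (-0.03 ± 0.2 SE). The 2 genes lie 23777 bp apart with no protein-coding gene between them and share 17 of the 22 regions that each has in its window, so they are not independent. Il10rb had 11, 15 and 14 peaks in DTx and 11, 13 and 12 in untreated libraries (0.14 ± 0.2 SE). Ifnar1 had 12, 14 and 15 in DTx and 13, 14 and 13 in untreated libraries (0.03 ± 0.2 SE). For these 4 genes the ranges of the groups overlapped.

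Il10ra had 10, 12 and 12 peaks in DTx and 10, 11 and 13 in untreated libraries, a log2 fold of 0.0 ± 0.2 (SE). Il6ra had 7, 8 and 9 in DTx and 6, 9 and 9 in untreated libraries (0.02 ± 0.2 SE). Ifngr2 had 7, 8 and 10 in DTx and 7, 7 and 9 in untreated libraries (0.11 ± 0.2 SE). Again no group stood clear of the other. Il2rg had 4, 5 and 6 in DTx and 4, 5 and 4 in untreated libraries (0.18 ± 0.21 SE). Ifngr1 had 6, 5 and 5 in DTx and 6, 6 and 7 in untreated libraries (-0.23 ± 0.21 SE). In the deposited lists, uncut, the fold of Ifngr1 was 0.17 and those of Il4ra and Il21r were 0.26 and 0.18, so their sign changed with the lists. The fold of Il6ra there was 0.49, and all 9 were above 0, with no share of all genes to set beside them. Il13ra1 had 2, 2 and 1 peaks in DTx libraries and 2 in each untreated library. Of all genes tested, 1.41% had every DTx count above every untreated one and 0.859% the reverse, and 0 of the 10 receptor genes did either.

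**Figure D2:**
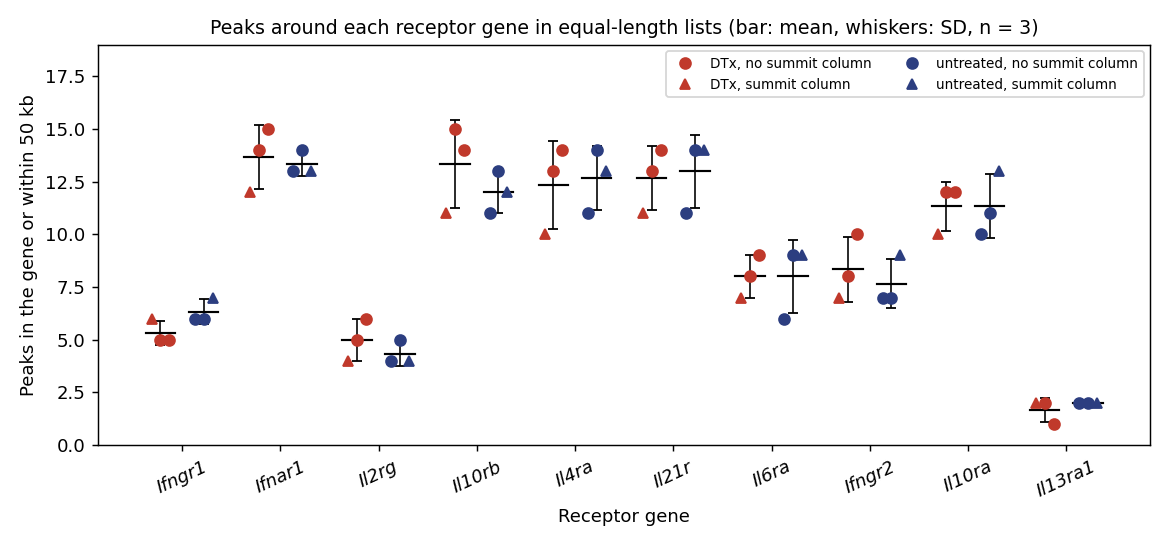
Number of peaks from 50 kb before to 50 kb past each receptor gene in the equal-length lists, with DTx left of untreated, 1 point per library, the mean as a bar and the SD as whiskers (n = 3). The groups overlap for every gene. Among the DTx libraries the triangle, replicate 1, is the lowest or tied with the lowest for 8 of the 10 genes, Ifngr1 and Il13ra1 being the exceptions. Among the untreated libraries replicate 1, a list with no summit column, is the lowest or tied with the lowest for every gene. Replicate 1 has the shortest deposited list in both groups, so the kind of list cannot be told apart here from list length or replicate number.

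The direction of these counts differed between the kinds of list. In the lists without a summit column, DTx exceeded untreated for 8 of 10 genes and was lower for Ifngr1 and Il13ra1. In the pair of lists with one, DTx replicate 1 was lower than untreated replicate 3 for 8 genes and equal for Il2rg and Il13ra1. No share of all genes is given beside these counts, and neighbouring receptor genes share regions, so the genes are not independent. In the deposited lists all regions leaned the same way within each kind, as given below, so these directions cannot be read as particular to the receptor genes. Ifngr1 alone was lower in DTx within both kinds, by 1 peak in each (a mean of 5 in DTx and 6 in untreated libraries without a summit column, and 6 in DTx replicate 1 and 7 in untreated replicate 3). The part of the kind of list in the pooled values was not tested beyond the fit that includes it as a factor, which also called 0 receptor genes. Per length, the windows of Il10rb, Ifnar1, Il10ra, Il4ra and Il21r held between 9.66 and 11.1 peaks per 100 kb in DTx and between 9.83 and 10.6 in untreated libraries. Those of Ifngr2, Il6ra, Il2rg and Ifngr1 held between 4.51 and 7.13 in DTx and between 4.17 and 6.56 in untreated libraries. Il13ra1 held 1.05 in DTx and 1.26 in untreated libraries. The median over the 12570 genes tested was 4.63 per 100 kb in DTx and 4.52 in untreated libraries.

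The windows of the 10 genes held 111 distinct regions of the 70174 made by merging the 6 lists. Of these, 58 (52.3%) were called in all 6 libraries, against 44.1% of all regions, and 17 (15.3%) in 1 library only, against 18.2%. Regions complete in one group and absent from the other numbered 0 in the deposited and 0 in the equal-length lists. Among all regions 0.705% were DTx-only and 0.0242% untreated-only in the deposited lists, and 0.255% and 0.402% in the equal-length lists.

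**Figure D3:**
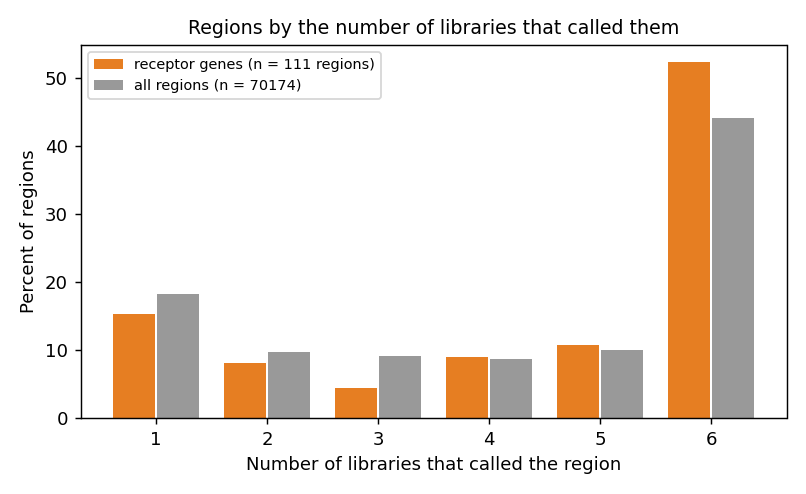
Share of regions by the number of libraries that called them, for the 111 regions in the windows of the receptor genes and for all 70174 regions. The class called in all 6 libraries is the largest in both, at 52.3% and 44.1%.

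In the deposited lists 32 receptor regions (28.8%) were called in more DTx than untreated libraries and 9 (8.11%) in more untreated than DTx libraries, where all regions gave 36.4% and 8.8%. In the equal-length lists the counts were 16 (14.4%) and 14 (12.6%), and for all regions 12.8% and 13.7%. Il6ra showed the widest gap between the 2 ways of counting. In the deposited lists 10 of its 17 regions were in more DTx libraries and 1 in more untreated ones, and in equal-length lists these were 3 and 3. Only 5 of those 17 regions (29.4%) were called in all 6 libraries. At Ifnar1 13 of 18 (72.2%) were, and at Il10rb 11 of 17 (64.7%).

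Grouped by ligand, the interferon receptors had 20 of 32 regions (62.5%) called in all 6 libraries, the IL-10 receptor 20 of 34 (58.8%), the IL-4 and IL-13 receptors 16 of 32, the IL-21 receptor with Il2rg 13 of 29 (44.8%) and Il6ra 5 of 17 (29.4%). These groups share regions and genes, so their shares are not independent. Within the lists without a summit column, 10 of the 111 regions (9.01%) were in both DTx and neither untreated library, against 11.8% of all regions, and 0 the reverse, against 0.0698%. In the pair with a summit column, 1 region (0.901%) was in DTx replicate 1 alone and 23 (20.7%) in untreated replicate 3 alone, against 3.99% and 20.7% of all regions.

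The 5 genes on chromosomes 7 and 16 form 2 runs of neighbours. Between Il4ra and Il21r peaks were called in each of the 6 libraries. Sites away from the gene ends were ordered by their lowest percentile over the 6 libraries. The first of the Il4ra window lay 9652 bp before its start (chr7:125541620-125542619), at the 95.2nd, 93.0th and 93.9th percentile in DTx and the 89.2nd, 90.2nd and 94.4th in untreated libraries. It ranked above the Il4ra start peak in 6 of 6 libraries. The same held at 6 of the 10 genes, Il4ra, Il13ra1, Il21r, Il10ra, Il6ra and Ifngr2, for the first site in that order, counting a library with no end peak as lower. That site was picked from several per gene, from 2 at Il13ra1 to 12 at Ifnar1 called in all 6 libraries, which favours this outcome. No share over all genes is given beside it. At Il21r, Il10ra and Ifngr2 the site lay nearest to another gene.

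**Figure D4:**
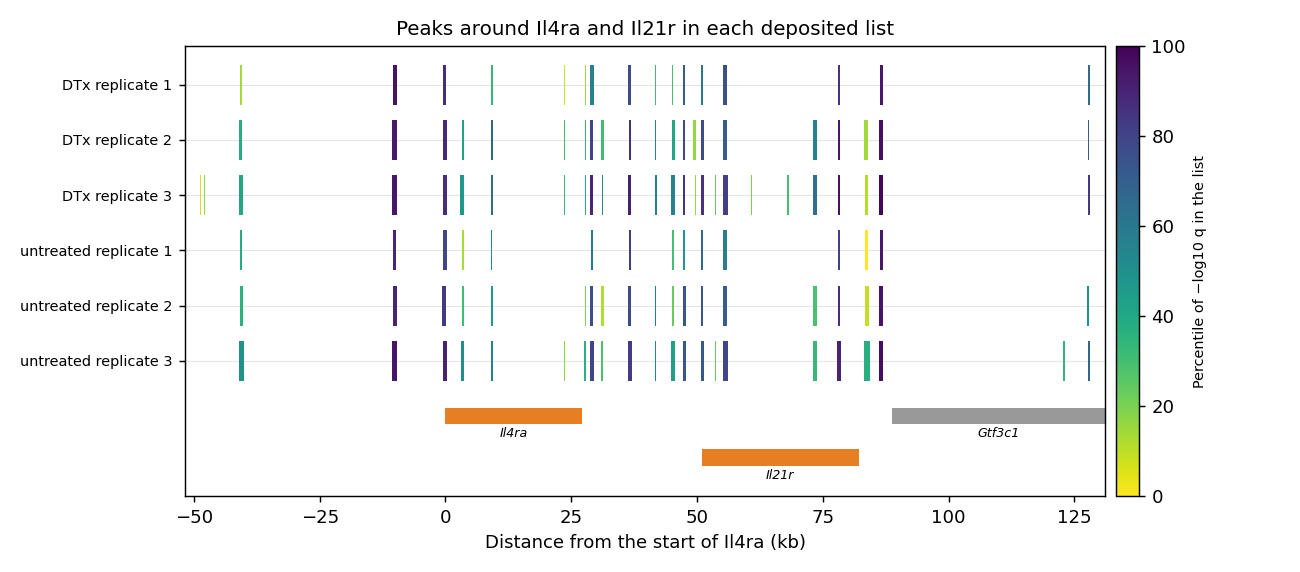
Peaks of each library (rows, DTx above untreated) around Il4ra and Il21r, by distance from the start of Il4ra in kb, coloured by the percentile of −log10 q in the list, with genes as boxes below. The dark bars about 10 kb before Il4ra and past the far end of Il21r stand in all 6 rows.

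On chromosome 16 Il10rb, Ifnar1 and Ifngr2 follow one another with gaps of 59197 and 36535 bp that hold no other protein-coding gene. Il10rb and Ifnar1 share 9 regions and Ifnar1 and Ifngr2 share 6. A site 19627 bp before Ifnar1 and 38745 bp from Il10rb (chr16:91464579-91465405) stood at the 88.9th, 93.8th and 93.6th percentile in DTx and the 86.6th, 89.7th and 93.3rd in untreated libraries, and comes first by its lowest percentile in both windows. In the Il10rb window a site inside the gene (chr16:91415947-91417657) ranked above it in DTx replicates 1 and 3, at the 91.3rd and 95.4th percentile. For Ifngr2 the first place by lowest percentile was taken by the peak at an end of Tmem50b (chr16:91596323-91598122), at the 86.5th percentile or above. For Il2rg it was one at an end of Med12 (chrX:101273780-101274634), at the 87.9th or above, and for Ifngr1 one 47107 bp away (chr10:19657336-19657931), nearest to Il22ra2, at the 72.9th or above. At Ifngr1 a second site (chr10:19659936-19660406) ranked above that one in 3 of 6 libraries.

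**Figure D5:**
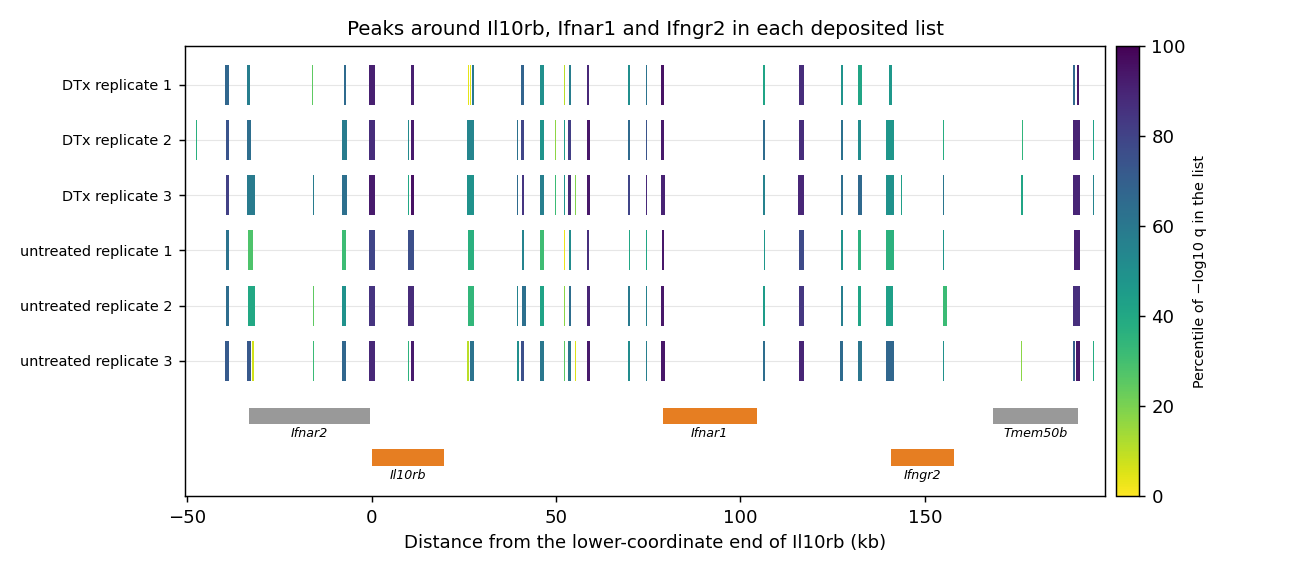
Peaks of each library (rows, DTx above untreated) around Il10rb, Ifnar1 and Ifngr2, by distance from the lower-coordinate end of Il10rb in kb, coloured by the percentile of −log10 q in the list, with genes as boxes below. The dark bars at the lower-coordinate ends of Il10rb and Ifnar1 contrast with the paler ones at the start of Ifngr2, in all 6 rows.

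Among the other genes of these pathways limma called 0 genes higher and 0 lower in DTx, for the 20 tested of 24 partner and other cytokine receptors, the 5 tested of 8 ligands, the 11 kinases and STATs, the 8 feedback genes and the 15 matched targets. Gene-end peaks stood in all 6 libraries at 15 of the 24 other receptors, among them Il9r at the 97.8th percentile or above, while Il1r1, Il12rb1, Il13ra2 and Il22ra1 lacked one throughout. For this list and those below, the share of all protein-coding genes with one in all 6 libraries was 49.2%. Il2rb, the β chain for IL-2 and IL-15, and Il20rb lacked one in every DTx library and had one in 2 of 3 untreated libraries. These peaks were at or below the 26.9th percentile for Il2rb and the 5.91st for Il20rb. Among all genes 2.36% had a gene-end peak in more untreated than DTx libraries, by any number of libraries. The share with a difference as large as that of these genes is not given. The partner chain genes Il6st (gp130), at the 72.6th percentile or above, and Ifnar2 had one in all 6. Of the kinases and STATs 9 of 11 did, Tyk2 and Stat3 at the 94.7th percentile or above and Stat6, through which IL-4 acts, at the 70.5th or above. Stat4 and Stat5b lacked one throughout. The 8 feedback genes, such as Socs1 and Cish, were complete, and so were 13 of 15 target genes.

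Of the ligand genes, Il4, Il13, Il21, Ifnb1 and Il2 lacked a gene-end peak throughout. Il10, a cytokine that B cells can make, had one in all 6 at the 41.4th percentile or above. Ifng, typically made by T and natural killer cells, was peak-bearing in all DTx libraries and 1 of 3 untreated ones, and Il6 in 2 of 3 DTx libraries and no untreated one. The Ifng peak ranked between the 59.4th and the 70.1st percentile of its lists and that of Il6 between the 7.57th and the 25.6th. A gene-end peak in more DTx than untreated libraries, by any number of libraries, was found for 5.02% of all genes. The share with a difference as large as that of Ifng and Il6 is not given. Of the T cell genes matched, 2, 4 and 5 of 8 had a gene-end peak in DTx replicates 1, 2 and 3 and 2, 4 and 4 in the untreated ones, and of the natural killer genes 1, 1 and 2 of 6 in the DTx and 2, 1 and 2 in the untreated ones. Their part in the Ifng and Il6 calls was not tested.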

How the data were processed

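Immature splenic B cells of Tcrd-GDL mice were profiled by ATAC-seq in 3 DTx and 3 untreated libraries. The authors used Trim Galore 0.4.3, Bowtie2 2.3.2 and MACS2 2.1.1 with the build mm10, per the submitters' processing notes, and deposited 1 peak list for each library. The sources used here do not state Tn5 shifting, duplicate removal or read totals. Each deposited list holds the pileup (a coverage signal), the fold enrichment as a ratio (both per the file headers), and 2 columns with the −log10 of the p-value and q-value. The deposited headers of these last 2 columns are damaged, and they were identified from their order and values. In lists with a summit column pileups are whole numbers and −log10 q starts at 1.3 to 1.33, in the others at 1 to 1.02. The other deposited column used, length, is in bp.

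Only chromosomes 1 to 19, X and Y were used, which removed 2 mitochondrial peaks per list. Percentiles are ranks of −log10 q within a deposited list. Equal-length lists hold the 36760 peaks of highest −log10 q. Overlapping peaks of all lists were merged into regions, which a library has if one of its peaks shares 1 bp with it, and which belong to a gene when their midpoint is in it or within 50 kb. Genes come from a RefSeq table of GRCm38.p6, without exons. Peaks with their midpoint in that window were counted per gene, and genes with a mean of at least 3 entered a limma 3.58.1 model (R 4.3.3) of log2(peaks + 0.5) with a robust variance trend and with each gene's residual variance floored at the median of those above 0 (0.0359), since whole counts equal in all replicates have no spread. P-values were Benjamini-Hochberg adjusted over all 12570 genes. Single genes' calls were compared by an exact two-sided permutation test over 20 relabellings, whose smallest p is 0.1, so it cannot reach 0.05. Promoter windows are RefSeq's, 250 bases before to 50 after a start, found for 8 of 10 genes. Python 3.11.15, NumPy 2.4.6, pandas 2.3.3, SciPy 1.17.1 and matplotlib 3.10.9 were used.

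The genes, lists and tests were chosen with earlier results of these data known. The named genes are all 10 receptors with every region at their ends and the region of highest lowest percentile away from them. Of the other pathway lists they include those whose calls differed by 2 or more libraries, had no peak or were called by limma. Genes cited as examples beyond that rule (the marker genes, Il9r, Il6st, Ifnar2, Tyk2, Stat3, Stat6, Socs1, Cish, Il10) were chosen after their values were seen. Alternatives were other windows, distances, lists, pseudocounts, filters, the variance floor, the replicate number or kind of list as a factor, and leaving out each library.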

Additional observations from a re-analysis of the deposited data

How the results depend on the processing

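Under every alternative run, limma called 0 of the receptor genes (lowest adjusted p 0.848 over 143 combinations of gene and setting for 9 genes), and 0 of them had a gene-end peak in every library of one group and none of the other. Their log2 folds ranged from -0.31 to 0.49. The sign changed under some of the alternatives for Il4ra, Il21r, Il10ra, Il6ra, Ifngr1, Ifngr2 and Ifnar1. For Il2rg and Il10rb the fold stayed above 0 under each of them. All 9 were above 0 in the deposited lists, from 0.08 to 0.49, and with a −log10 q of at least 5, from 0.1 to 0.43. In the deposited lists 36.4% of all regions were called in more DTx than untreated libraries and 8.8% in more untreated ones. No share of all genes with a fold above 0 is given for these settings. The 9 folds therefore cannot be read as particular to the receptor genes. The highest were Il6ra at 0.49 in the deposited lists and Il10ra and Il10rb at 0.43 and 0.39 with a −log10 q of at least 5, against 0.02, 0 and 0.14 in the equal-length lists. In the deposited lists Il4ra, Il21r and Ifngr1 came to 0.26, 0.18 and 0.17, with a −log10 q of at least 5 to 0.3, 0.3 and 0.12, and in the lists without a summit column Il4ra and Il21r to 0.12 and 0.12. With 10 kb on each side Il10ra, Il6ra and Ifngr2 came to -0.2, -0.07 and -0.04, and with 100 kb Il10ra to -0.03. Leaving out 1 library gave ranges of -0.14 to 0.09 for Il4ra, -0.15 to 0.06 for Il21r, -0.08 to 0.1 for Il10ra, -0.17 to 0.11 for Il6ra, -0.02 to 0.22 for Ifngr2 and -0.04 to 0.12 for Ifnar1. The ranges that kept their sign were 0.05 to 0.31 for Il2rg, 0.05 to 0.27 for Il10rb and -0.31 to -0.16 for Ifngr1. The cause of the sign changes was not tested.

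Over all genes limma called 1 higher and 1 lower in DTx, and 0 and 2 with 10 kb, 0 and 3 with 100 kb, 3 and 0 in the deposited lists, 0 and 0 with a −log10 q of at least 5, 2 and 2 with no filter on few peaks, 60 and 28 with no floor on the variance, 0 and 0 with the kind of list as a factor, and 11 and 9 in the lists without a summit column. Without 1 library they were 0 to 11 and 0 to 6. The replicate block gave 10 and 5. Same-numbered libraries deviated with correlations of 0.438, 0.0498 and 0.327 for replicates 1, 2 and 3, and other-numbered ones with -0.394 to 0.202. Replicates 1 and 3 thus correlated best with their own numbers. DTx replicate 2 did not, with 0.123 for untreated replicate 3. Whether the numbers pair the libraries is not settled by these values, and the main fit does not pair them.

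Genes with an end peak in every DTx and no untreated library numbered 8, and 15 within 2 kb, 5 with a −log10 q of at least 5 and 396 in the lists without a summit column, with 13 to 100 when 1 library was left out. The reverse numbered 1, and 3 within 500 bp, 71 in equal-length lists, 0 with a −log10 q of at least 5, 3 in the lists without a summit column and 1 to 15 when 1 library was left out. The mean number of receptor genes with an end peak, DTx minus untreated, was -0.667, and 0.333 with a −log10 q of at least 5, 0 in the lists without a summit column and -0.833 to -0.333 when 1 library was left out. DTx-only regions at the receptor genes numbered 0, and 10 in the lists without a summit column, 0 to 4 when 1 library was left out, and 1 (chr3:89870861-89871297, inside Il6ra) where a peak had to cover at least 0.5 of the region. With no read totals, the depth that limits weak peaks is unknown.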
